A study of Mus musculus with 30 samples.

Results

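LL2 tumours, grown from the Lewis lung carcinoma line, were compared with MC38 tumours, grown from a colon carcinoma line, across all genes measured by RNA-seq. Both lines come from C57BL/6 mice. The comparison took 3 LL2 libraries and 3 MC38 libraries, which were chosen by their labels, out of 30 libraries of 10 subcutaneous mouse tumour lines. Of 55291 gene symbols, the 14684 that reached 1 TPM, a length-corrected share of all transcripts, in at least 3 of these 6 libraries were tested. All 6 libraries are labelled as CD45+ immune cells from tumours, and the protocol gives RNA from single cell suspensions of minced, enzymatically digested tumours of 10 mm. The protocols mention hosts of the BALB/cJ or C57BL/6J strain and tumours with or without 24 hours of OK-432, a killed streptococcal preparation, but tie neither to a library. Host strain and treatment are therefore not known for any LL2 or MC38 library. Age, sex, genotype and the number of mice behind each library are not given either.

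Macrophages are phagocytes that arise from monocytes or from tissue precursors and depend on the growth factor receptor CSF1R. In tumours, one macrophage state carries scavenger receptors such as CD206 and CD163, binds debris and makes complement C1q. Killer lymphocytes, the CD8 T cells and natural killer (NK) cells, kill targets with perforin and granzymes and secrete interferon gamma. Interferons signal through transcription factors that bind short DNA elements near antiviral genes, chemokine genes and genes of MHC class I antigen presentation.

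The promoter sequences belong to 2 groups of genes that were lower in LL2, interferon-induced genes and the granzyme cluster. The first 5 stretches are 100 bases each from the promoter windows of interferon-induced genes (RefSeq, GRCm38.p6), given 5′ to 3′ on the gene's strand. Capitals mark GAAANNGAAA, the core of the interferon-stimulated response element, or its reverse complement, with overlapping matches joined.
Cxcl10, chr5:92349033-92349132, minus strand: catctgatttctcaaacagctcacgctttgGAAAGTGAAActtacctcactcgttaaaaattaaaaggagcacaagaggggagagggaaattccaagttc
Rsad2, chr12:26456503-26456602, minus strand: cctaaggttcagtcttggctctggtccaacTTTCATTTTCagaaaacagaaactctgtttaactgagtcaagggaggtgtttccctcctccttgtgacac
Isg15, chr4:156200827-156200926, minus strand: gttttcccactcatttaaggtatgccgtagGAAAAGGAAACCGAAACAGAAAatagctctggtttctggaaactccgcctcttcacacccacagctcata
Ifit3, chr19:34583343-34583442, plus strand: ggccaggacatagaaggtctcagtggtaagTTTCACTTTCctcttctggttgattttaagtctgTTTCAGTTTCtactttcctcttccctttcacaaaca
Gbp3, chr3:142559969-142560068, plus strand: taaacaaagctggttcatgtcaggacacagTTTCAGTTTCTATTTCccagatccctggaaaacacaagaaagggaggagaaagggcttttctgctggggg
The other 5 stretches come from the granzyme cluster of chromosome 14, all on the minus strand. They are shown because 5 neighbouring granzyme genes, which resemble each other in sequence, had some of the lowest fold changes of all genes. Capitals mark TGTGGT, the core bound by RUNX factors, or its reverse complement.
Gzmc, chr14:56234740-56234839: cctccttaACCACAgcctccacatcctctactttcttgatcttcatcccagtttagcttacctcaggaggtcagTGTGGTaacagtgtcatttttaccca
Gzmd, chr14:56132676-56132775: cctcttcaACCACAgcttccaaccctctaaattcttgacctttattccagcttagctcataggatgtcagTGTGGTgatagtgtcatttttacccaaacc
Gzme, chr14:56120709-56120808: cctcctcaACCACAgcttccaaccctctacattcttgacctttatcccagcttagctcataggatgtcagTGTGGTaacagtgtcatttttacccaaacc
Gzmf, chr14:56211511-56211610: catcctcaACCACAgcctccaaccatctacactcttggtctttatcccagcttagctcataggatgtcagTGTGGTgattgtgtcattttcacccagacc
Gzmg, chr14:56159678-56159777: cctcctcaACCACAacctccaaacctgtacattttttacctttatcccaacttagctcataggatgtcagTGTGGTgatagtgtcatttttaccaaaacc

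Windows of 300 bases, 250 before and 50 after the gene start, were searched on both strands in the 10383 tested genes that had one. The response element core lay in 116 of 1643 genes lower in LL2 (7.06%), in 41 of 1117 genes higher in LL2 (3.67%), and in 264 of 7623 tested genes that were not called (3.46%). Over all 27025 promoters of the table its share was 3.99%. It lay in 9 of 15 promoters of the antiviral list and in 11 of 14 of the interferon-gamma list. TGTGGT was in 18.9% of all promoters, and in 18.4% of genes lower in LL2, 17.1% of genes higher and 14.7% of those not called. It was in 10 of 16 promoters of the CD8 and cytotoxicity list. The 5 granzyme promoters shown are among these 10 and are 81.3% to 93.7% identical, so they are not separate hits. It was also in 7 of 10 promoters of the NK list, 5 of 7 of the checkpoint list and 6 of 10 of the mast cell, basophil and eosinophil list. A match describes these letters in this window and is not a measurement of binding.

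Each library summed to 1000000 TPM by construction, so sequencing depth is unknown, and 13800 to 13980 genes of LL2 libraries against 13840 to 14500 of MC38 libraries reached 1 TPM. Mitochondrial transcripts took 18.3% to 30.9% of TPM in LL2 and 13.8% to 27.5% in MC38. Haemoglobin took 0.0736% to 0.209% in LL2 and 0.648% to 3.86% in MC38, with MC38 replicate 3 highest. Libraries of a line correlated across genes at r = 0.977 or above, and libraries of different lines at r = 0.866 or below, where genes are not independent replicates. The labels do not say whether the 3 libraries of a line are from different animals, and p-values then measure only the spread between these samples, which may be technical.

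Of the 14684 genes tested by limma on log2(TPM + 1), 1576 were higher in LL2 (10.7%) and 2300 lower (15.7%), at an adjusted p under 0.05 and a log2 fold change of at least 1. At a fold change of 2 or more on that scale, 408 were higher and 535 lower. The median of all genes was -0.13, with quartiles of -0.67 and 0.42, and the 3 LL2 values lay wholly above or below the 3 MC38 values in 8070 genes (55.0%). The fit gave every gene a spread that was set by its level alone, with an SE near 0.25, so every gene past the fold also passed the p. "Called" therefore means past the fold. A fit with each gene's own variance called 1412 higher and 1990 lower. The adjusted p-values given for single genes come from that fit, adjusted by the Benjamini-Hochberg method over all genes. The SE printed after a fold change comes from the first fit, so it is not that gene's own spread between libraries. Scaling libraries by median ratios gave 1855 higher and 1897 lower, which moved the higher share of calls to 49.4% from 40.7%, and moved the median of all genes to -0.0065. Scaling each library to its leukocyte genes gave 668 higher and 5008 lower, with a higher share of 11.8% and a median of -0.72.

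**Figure D1:**
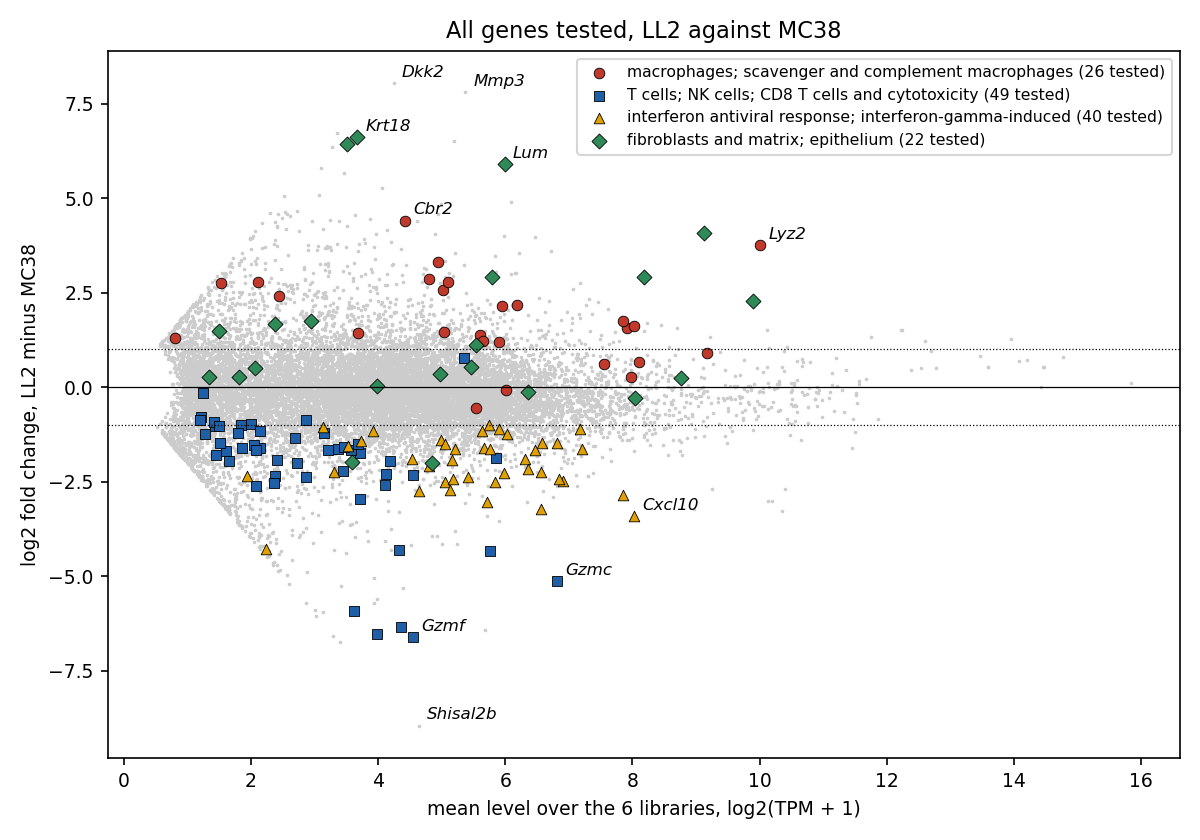
Each point is 1 of the 14684 genes tested, with its mean level over the 6 libraries on the x axis, log2(TPM + 1), and its log2 fold change, LL2 minus MC38, on the y axis; dotted lines mark 1 and -1. Red macrophage genes lie mostly above 0 and up to 4.402 (Cbr2), blue lymphocyte genes lie mostly below it and down to -6.62 (Gzmf), and yellow interferon-induced genes all lie below it.

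The mean of 10 general leukocyte genes was higher in every LL2 library than in every MC38 library, but most of these genes were not called. Ptprc, which encodes CD45, stood at 63.7, 95.5 and 66.1 TPM in LL2 libraries, against 78.7, 46.6 and 83.0 TPM in MC38 libraries. The ranges overlap, and the log2 fold change was 0.13 ± 0.25 (SE, n = 3 each). Of 10 general leukocyte genes, 2 were called higher, Lcp1 (1.14) and Arhgdib (1.11), an actin-bundling protein and a regulator of small GTPases. The median of the 10 was 0.52, against -0.13 for all genes tested, of which 10.7% were called higher. Cd53, a tetraspanin of leukocytes, stood at 0.34, and Fermt3, the highest of the 8 not called, at 0.75. MC38 replicate 2 had the lowest mean of these genes, 5.56 on the log2 scale, against 6.28 and 6.33 in the other MC38 libraries and 6.51 to 6.82 in LL2. Without that library neither Lcp1 nor Arhgdib was called, and the median was 0.33. In such bulk samples, more cells of a type and more RNA per cell cannot be told apart.

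Macrophage genes were higher in LL2, mostly those of the scavenger and complement state. Csf1r, the receptor that macrophages need to survive, had 159, 169 and 134 TPM in LL2 and 38.4, 20.5 and 47.3 TPM in MC38. Lyz2, the lysozyme of macrophages and neutrophils, reached 4944, 2698 and 4050 TPM in LL2, against 346, 172 and 363 TPM in MC38. Adgre1, which encodes the macrophage marker F4/80, stood at 83.7, 78.6 and 70.6 TPM in LL2 and at 45.6, 15.97 and 33.5 TPM in MC38. In all 3 genes each LL2 library was above each MC38 library. The log2 fold changes were 2.16 ± 0.25 for Csf1r (adjusted p = 0.022 in the limma fit with gene-wise variance), 3.76 ± 0.29 for Lyz2 (adjusted p = 0.01) and 1.38 ± 0.25 for Adgre1 (adjusted p = 0.081, past the threshold only in the shared-variance fit). Reads of Lyz2 and its paralog Lyz1 may be shared.

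Of the 12 general macrophage genes, 6 were called higher and none lower, with a median of 1.05. Mertk (1.44), a receptor for dying cells, and Cd14 (1.20), a co-receptor for lipopolysaccharide, were among them. The remaining 6 were not called. Fcgr1, the high-affinity IgG receptor, had 48.4, 99.0 and 49.1 TPM in LL2 and 87.0, 36.7 and 87.5 TPM in MC38, with overlapping ranges and a fold change of -0.08. Aif1, which encodes the macrophage protein IBA1, stood at 33.8, 46.3 and 32.6 TPM in LL2, against 74.9, 28.4 and 79.3 TPM in MC38 (-0.57). Cd68, Ctss, Tyrobp and Fcer1g lay between 0.28 and 0.89. The description of LL2 as macrophage-rich thus held for 6 of these 12 genes.

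The scavenger and complement list moved further. Its 16 members include 14 that passed the filter on low values, all 14 were called higher, and their median was 2.48, against -0.13 for all genes. Cbr2, a carbonyl reductase, led at 113, 88.0 and 92.9 TPM in LL2 and 3.78, 1.33 and 8.05 TPM in MC38 (4.402 ± 0.25, adjusted p = 0.013). F13a1, a subunit of coagulation factor XIII made by macrophages, had 104, 103 and 84.3 TPM in LL2 against 10.6, 4.87 and 12.7 TPM in MC38 (3.32, adjusted p = 0.01). Mrc1, which encodes the mannose receptor CD206, had 88.6, 110 and 73.1 TPM in LL2 and 15.4, 5.27 and 20.97 TPM in MC38 (2.78 ± 0.25, adjusted p = 0.033). MC38 replicate 2 was the lowest library for each of these 3 genes. Stab1, a clearance receptor (2.87), Cd163, the haemoglobin scavenger receptor (2.78), Folr2, a folate receptor (2.56), and Msr1, a scavenger receptor for modified lipoprotein (2.15), were higher in every LL2 library as well. Complement C1q was higher by less, with C1qa at 474, 378 and 385 TPM in LL2 and 198, 70.9 and 192 TPM in MC38 (1.55 ± 0.27, adjusted p = 0.083), C1qb at 1.63 and C1qc at 1.74. Vsig4, a complement receptor, and Marco, a scavenger receptor, were below 0.25 TPM in every MC38 library. Cd163 averaged 0.668 ± 0.277 TPM in MC38 (SD). Each of these genes passed the filter only through LL2, so none could have been called lower. Timd4 reached 0.760 TPM at most, and Clec4f, a gene of liver macrophages, was listed at 0 in all 6 libraries. With gene-wise variance 9 of the 14 were called, without C1qa, C1qb, C1qc, Lyve1 and Selenop. Relative to leukocyte genes 10 of the 14 stayed higher, while only Csf1r and Lyz2 of the 12 general macrophage genes did and Aif1 was lower.

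**Figure D2:**
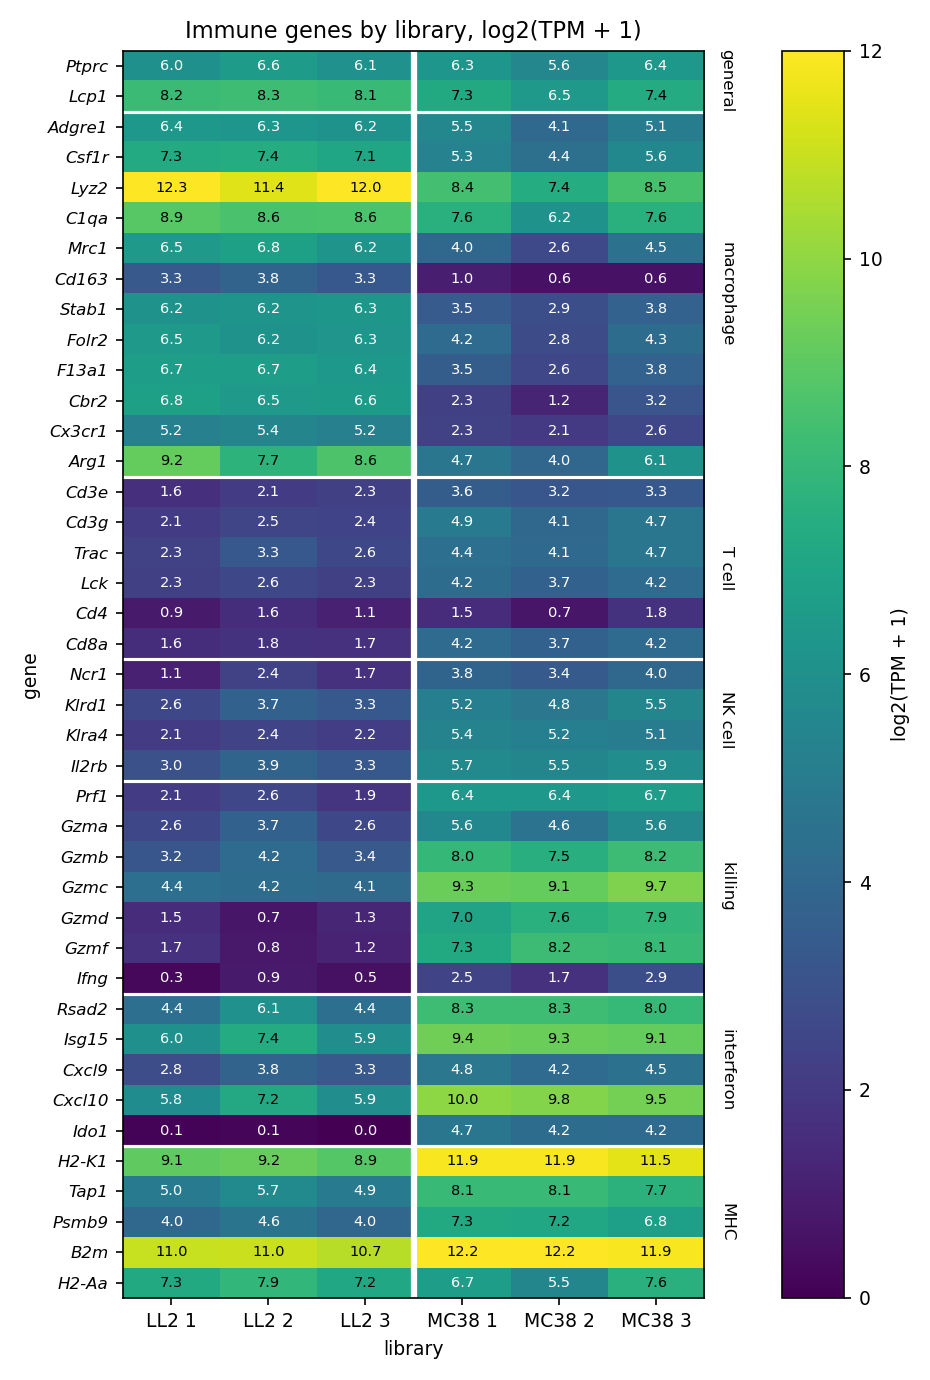
Rows are 41 immune genes and columns the 3 LL2 and 3 MC38 libraries, with log2(TPM + 1) written in each cell and shown as colour. Macrophage rows such as Lyz2 (3897 ± 1130 TPM in LL2, 293.5 ± 105 TPM in MC38, SD, n = 3 each) are brighter on the left, killing, interferon and MHC class I rows are brighter on the right, and LL2 2 is the LL2 library nearest to MC38 in interferon rows.

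Genes of lipid-associated macrophages, a state that takes up and stores lipid, went both ways. Of 15 genes, 4 were higher, 4 lower and 7 not called, with a median of 0.36 that turned to -0.24 relative to leukocyte genes. Among all genes tested, 10.7% were higher and 15.7% lower. Trem2, the lipid receptor that defines this state, had 87.9, 40.2 and 48.1 TPM in LL2, against 15.1, 7.45 and 11.3 TPM in MC38 (2.25, adjusted p = 0.028). Mmp12, the macrophage elastase (3.32), Cd36, a fatty acid receptor (2.18), and Apoe, a lipid carrier (1.57), were also higher. Spp1, which encodes osteopontin, was lower at 2421, 1079 and 1587 TPM in LL2 against 5270, 5724 and 3945 TPM in MC38 (-1.61 ± 0.32, adjusted p = 0.042). Gpnmb, a lysosomal glycoprotein, had 19.2, 13.2 and 17.2 TPM in LL2 and 192, 263 and 165 TPM in MC38 (-3.55, adjusted p = 0.0041). Lpl, which frees fatty acids from lipoproteins (-2.49), and Lgals3, a galectin (-1.06), were lower as well. Carcinoma cells can express Spp1, Gpnmb, Lpl and Lgals3 too, and their share of these levels cannot be told apart here.

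In the list of alternative activation and suppressive mediators, 7 of 14 tested genes were higher and 1 was lower, with a median of 0.82. Over all genes tested the shares were 10.7% higher and 15.7% lower. Arg1, the arginase that depletes arginine from T cells, had 582, 212 and 399 TPM in LL2, against 24.9, 14.5 and 69.2 TPM in MC38 (3.59 ± 0.26, adjusted p = 0.036). Nt5e, which makes adenosine (2.07), Mgl2, a lectin of alternatively activated macrophages (1.95), and the chemokines Ccl22 (1.301) and Ccl17 (1.13) did not overlap either. Retnla passed the fold (1.87) with overlapping libraries, since LL2 replicate 2 had 42.5 TPM and the other LL2 libraries 2.07 and 6.27. Vegfa, the main endothelial growth factor, was lower (-1.14) but overlapped, and it was not called with gene-wise variance (adjusted p = 0.14). Tgfb1, Ptgs2, Ptges, Il6, Il1b and Tnf were not called, and Il10 stayed below the filter at 0.299 TPM at most in LL2 and 2.95 TPM at most in MC38.

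Monocyte genes were split between 2 higher, 3 lower and 5 not called of 10, with a median of -0.10. The shares of all genes tested were 10.7% higher and 15.7% lower. Ccr2, the receptor that brings monocytes into tissue, had 94.9, 148 and 107 TPM in LL2, against 40.6, 17.2 and 54.2 TPM in MC38 (1.74). Ly6c2, a surface marker of inflammatory monocytes, had 45.4, 203 and 47.9 TPM in LL2 and 374, 166 and 327 TPM in MC38 (-1.82). Here LL2 replicate 2 reached into the MC38 range, as it did for Ms4a4c (-1.25). Plac8 (-1.64) was lower and Itgam, which encodes the integrin CD11b, was higher (1.99). With gene-wise variance Itgam alone was called, and none of the 3 lower genes was. Chil3 (-0.13), Treml4 (-0.30), F10 (0.79) and the remaining 2 were not called.

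Genes of T cells, NK cells and killing were lower in LL2. Cd3e, a chain of the T cell receptor complex, had 2.06, 3.40 and 3.89 TPM in LL2, against 10.8, 8.37 and 9.04 TPM in MC38 (-1.36 ± 0.24, adjusted p = 0.022). Cd8a, the co-receptor of killer T cells, had 2.01, 2.38 and 2.24 TPM in LL2 and 17.5, 12.2 and 17.6 TPM in MC38 (-2.37 ± 0.25, adjusted p = 0.0043). Neither gene overlapped between the lines. Cd4, the co-receptor of helper T cells, had 0.851, 1.96 and 1.14 TPM in LL2, against 1.87, 0.635 and 2.39 TPM in MC38, with overlap and a fold change of -0.15 that was not called. Of 18 T cell genes, 15 were lower and none higher, with a median of -1.23. Cd3g (-2.23), Lck (-1.67), the kinase that starts receptor signalling, Zap70 (-1.66), the kinase that follows it, and the receptor constant segments Trac (-1.65) and Trbc1 (-1.63) moved most. Cd2 and Cd5 were the other T cell genes not called, at -0.88 and -0.92.

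The CD8 and cytotoxicity list had the lowest median of all immune lists. Of its 18 members, 17 passed the filter on low values, and all 17 were lower, with a median of -2.58. Gzmd, Gzme, Gzmf, Gzmg, Eomes, Tbx21 and Ifng among them reached 1 TPM in fewer than 3 LL2 libraries. They passed the filter only with the help of MC38, so the count of 17 was partly fixed by the filter. Prf1, which encodes the pore-forming perforin, had 3.36, 4.91 and 2.61 TPM in LL2, against 82.2, 82.7 and 102 TPM in MC38 (-4.30 ± 0.25, adjusted p = 0.0028). Gzmb, the granzyme that triggers apoptosis, had 8.38, 17.03 and 9.24 TPM in LL2 and 256, 186 and 295 TPM in MC38 (-4.33 ± 0.25, adjusted p = 0.0054). Gzmc had 19.8, 17.8 and 16.6 TPM in LL2, against 639, 564 and 825 TPM in MC38 (-5.13 ± 0.26, adjusted p = 0.0016). In each of these genes the highest LL2 library lay more than an order of magnitude below the lowest MC38 library. Gzmd (-6.34), Gzme (-5.91), Gzmf (-6.62) and Gzmg (-6.53) were lower still, and LL2 libraries held at most 2.27 TPM of any of them. Gzma, a granzyme shared by many NK and T cells, was lower by less, at 5.03, 12.1 and 5.07 TPM in LL2 against 47.2, 22.6 and 49.1 TPM in MC38 (-2.30). Transcripts of Gzmd, Gzme, Gzmf and Gzmg are 84.1% to 90.4% identical, and Gzmc is 72.6% to 74.5% identical to them, so reads may be shared among these 5 and the level of each is uncertain. Gzmb is at most 51.4% identical to any of the 5.

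Regulators and products of killer cells followed. Eomes, a transcription factor of killer cells, had 0.388, 1.49 and 0.478 TPM in LL2, against 10.4, 8.12 and 10.1 TPM in MC38 (-2.61, adjusted p = 0.0093). Ifng, the gene of interferon gamma, had 0.201, 0.823 and 0.444 TPM in LL2 and 4.48, 2.30 and 6.29 TPM in MC38 (-1.79, adjusted p = 0.034). LL2 replicate 2 was the highest LL2 library for both, and it did not reach the MC38 range. Ifng passed the filter only through MC38, so it could not have been called higher. Nkg7, a granule protein (-2.58), Ccl5, a chemokine for T cells (-1.86), Fasl, a death ligand (-1.68), Xcl1, the attractant of cross-presenting dendritic cells (-1.59), and Tbx21 (-1.48) were lower too. Gzmk stayed below the filter, at 0.132 TPM at most in LL2 and 1.44 TPM at most in MC38.

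Of 14 NK cell genes, 10 were lower and none was called higher, with a median of -1.85. Ncr1, which encodes the NK receptor NKp46, had 1.13, 4.19 and 2.26 TPM in LL2, against 13.4, 9.38 and 14.99 TPM in MC38 (-2.02 ± 0.24, adjusted p = 0.033). Klrb1c, which encodes NK1.1, stood at -0.97 and was not called. Klra4, an activating receptor of the Ly49 family, had 3.34, 4.42 and 3.49 TPM in LL2 and 40.1, 34.8 and 32.9 TPM in MC38 (-2.96 ± 0.25, adjusted p = 0.0022). The Ly49 genes are close paralogs, and their reads may be shared. Klrc1 (-2.55), an inhibitory NKG2 receptor, and Il2rb (-2.32), a chain of the interleukin-2 and interleukin-15 receptors, were also lower. Il18rap, a chain of the interleukin-18 receptor that other leukocytes share, went against the list at 54.4, 55.1 and 47.2 TPM in LL2 and 33.0, 32.2 and 25.98 TPM in MC38 (0.77, not called).

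Checkpoint genes of activated T cells were lower in 5 of 7 tested, with a median of -1.46. Pdcd1, which encodes PD-1, had 0.809, 1.24 and 1.69 TPM in LL2, against 8.32, 6.63 and 9.45 TPM in MC38 (-2.03). Lag3 (-2.58), Tnfrsf9 (-2.11), which encodes the co-stimulator 4-1BB, Ctla4 (-1.46) and Tigit (-1.03) were lower. Havcr2, which encodes TIM-3 and is found on myeloid cells too, was not called, at 23.8, 22.0 and 21.8 TPM in LL2 and 18.5, 18.6 and 22.3 TPM in MC38. Of regulatory T cell genes, Foxp3, their master regulator, stayed below the filter at 1.18 TPM at most in LL2 and 1.61 TPM at most in MC38. Il2ra and Tnfrsf18 were lower among the 4 that were tested (-1.05 and -1.01), but neither was called under median-ratio scaling or without MC38 replicate 3, and Il2ra was not called with gene-wise variance (adjusted p = 0.074). B cell genes were scarce in both lines. Ms4a1, a surface marker of these cells, reached at most 0.323 TPM in LL2 and 0.355 TPM in MC38, while Cd79a (-2.35), Pax5 (-1.999) and Cd79b (-1.15) were lower and Ighm and Igkc were not called.

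**Figure D3:**
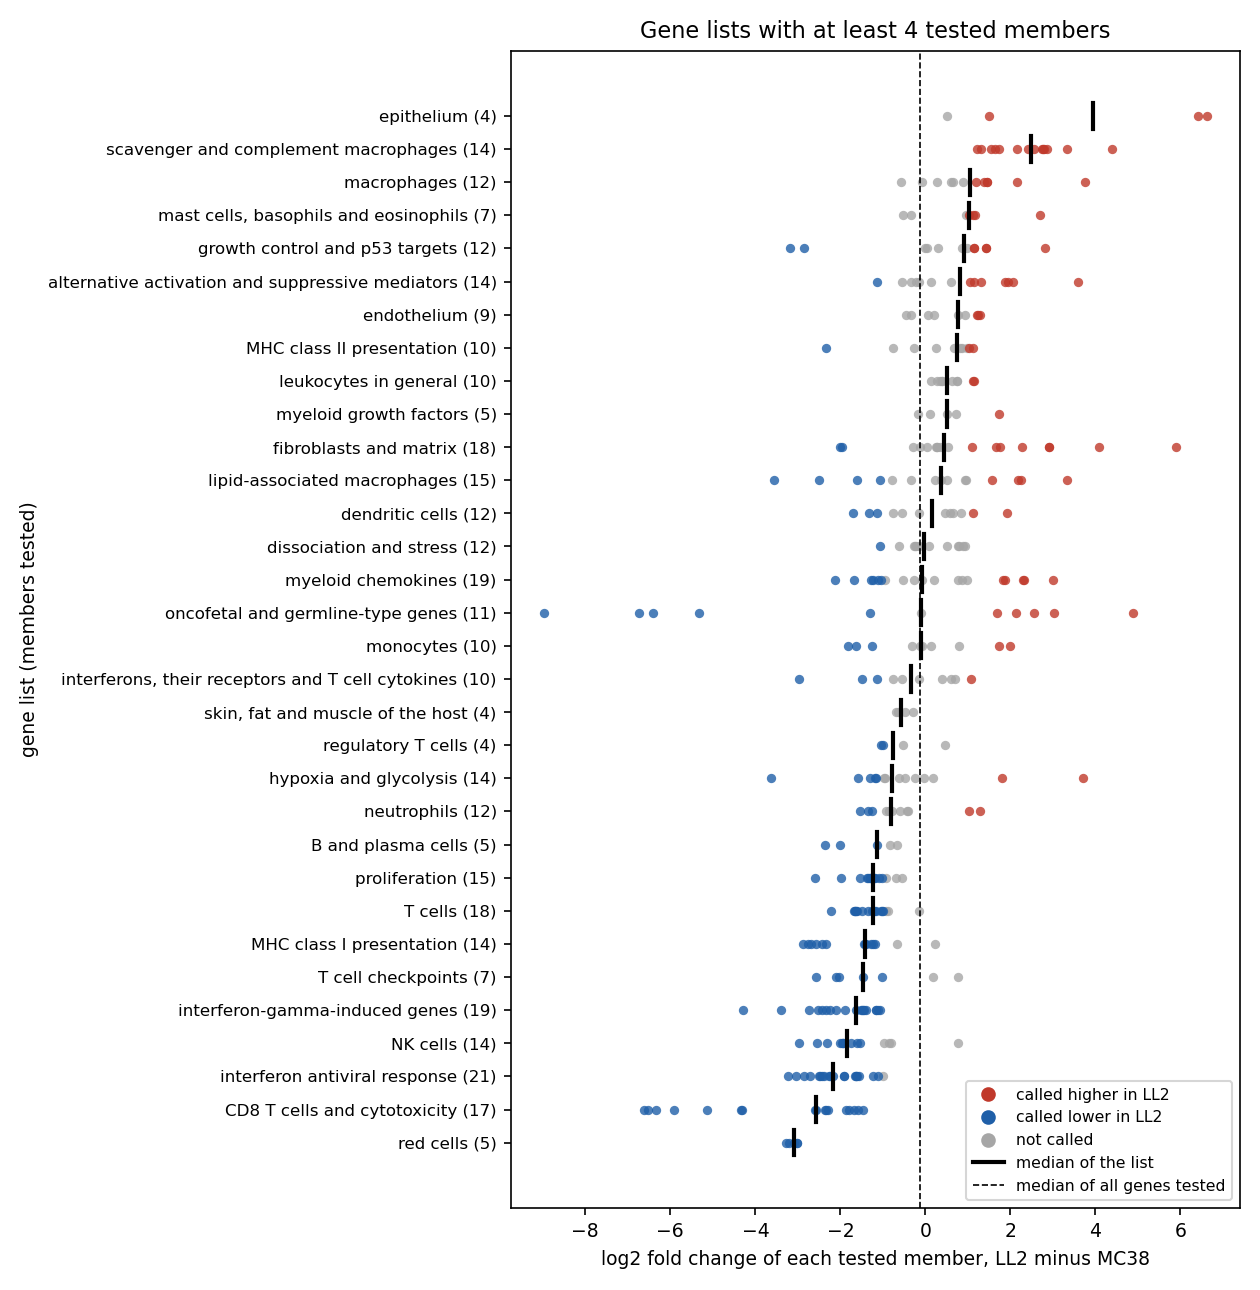
Each row is a gene list with at least 4 tested members, each point the log2 fold change of a member, LL2 minus MC38, and the black bar the median of the list; the dashed line marks the median of all genes, -0.13. Scavenger and complement macrophages lie wholly to the right with a median of 2.48, while CD8 T cells and cytotoxicity (-2.58), the interferon lists (-2.18 and -1.64) and MHC class I (-1.42) lie to the left.

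Interferon-induced genes were lower in LL2, and more so in replicates 1 and 3 than in replicate 2. Rsad2, which encodes the antiviral viperin, had 19.8, 66.8 and 19.9 TPM in LL2, against 305, 304 and 259 TPM in MC38 (-3.23 ± 0.26, adjusted p = 0.024). Isg15, a ubiquitin-like protein, had 63.3, 166 and 58.9 TPM in LL2 and 684, 622 and 564 TPM in MC38 (-2.85 ± 0.27, adjusted p = 0.022). LL2 replicate 2 stood above the other LL2 libraries for both genes and below each MC38 library. Of 21 antiviral genes, 20 were lower with a median of -2.18, and Ifit2 just missed the fold of 1 with overlapping libraries. Oasl1 (-3.04), Ifi44 (-2.71), Cmpk2 (-2.51) and Oasl2 (-2.47) were among the lowest. Only 12 of the 21 were called with gene-wise variance, and all 21 were lower without LL2 replicate 2.

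The 19 genes induced mainly by interferon gamma were all lower, with a median of -1.64. Cxcl10, a chemokine for activated T and NK cells, had 56.6, 151 and 57.3 TPM in LL2, against 990, 866 and 708 TPM in MC38 (-3.41 ± 0.27, adjusted p = 0.015). Cxcl9, which binds the same receptor, had 6.09, 13.3 and 9.12 TPM in LL2 and 26.3, 17.2 and 22.1 TPM in MC38 (-1.16 ± 0.25, adjusted p = 0.069). Ido1, which degrades tryptophan, had 0.088, 0.109 and 0 TPM in LL2, against 25.2, 17.9 and 17.5 TPM in MC38 (-4.30, adjusted p = 0.002). It passed the filter only through MC38. The GTPases Tgtp1 (-2.75), Gbp3 (-2.52) and Gbp5 (-2.10), which attack vacuoles of pathogens, Nos2, the inducible nitric oxide synthase (-2.24), and Cd274, the gene of PD-L1 (-1.39), were lower as well. Calls of Cxcl9, Gbp4 and Iigp1 were lost in a limma fit over all 30 libraries (adjusted p = 0.091, 0.071 and 0.18), and 15 of the 19 were called with gene-wise variance.

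MHC class I presentation moved with them, with 12 of 14 genes lower and a median of -1.42. H2-K1, a classical class I heavy chain, had 541, 598 and 462 TPM in LL2, against 3801, 3767 and 2875 TPM in MC38 (-2.70 ± 0.30, adjusted p = 0.0035). H2-D1, the other one, had 1122, 985 and 852 TPM in LL2 and 2732, 2980 and 2169 TPM in MC38 (-1.41 ± 0.31, adjusted p = 0.012). Both were separated without overlap. Psmb9 (-2.87) and Psmb8 (-2.57), subunits of the immunoproteasome, and Tap1 (-2.75), which pumps peptides into the endoplasmic reticulum, were lowest, and B2m, the light chain, stood at -1.18. The peptide trimmer Erap1 (-0.66) and the nonclassical H2-T23 (0.22) were not called. Paralogs of the class I family may share reads.

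MHC class II genes differed little against their spread. H2-Aa had 158, 244 and 145 TPM in LL2, against 107, 43.8 and 193 TPM in MC38, which overlap (0.87, not called). H2-Ab1 (1.11) and H2-Eb1 (1.03) passed the fold with overlapping libraries, and neither was called in the fit over all 30 libraries (adjusted p = 0.18 and 0.22) or without LL2 replicate 2 or MC38 replicate 2. H2-Oa, a modulator of peptide loading in B cells and dendritic cells, was lower (-2.34), and its libraries did not overlap. The other 6 tested genes, Ciita among them, were not called. In all, 2 of 10 tested genes were higher and 1 was lower, beside 10.7% higher and 15.7% lower of all genes tested. The count of higher genes became 4 without LL2 replicate 3 and 6 without MC38 replicate 3. H2-Ea was listed at 0 in all 6 libraries.

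Interferon genes and receptors were mixed. Ifngr1, the ligand-binding chain of the interferon gamma receptor, was higher at 129, 123 and 110 TPM in LL2 against 62.3, 52.2 and 57.2 TPM in MC38 (1.06 ± 0.25, adjusted p = 0.007). Ifnar1 (0.60) and Ifnar2 (-0.16), the chains of the type I receptor, and Ifngr2 (0.40) were not called. Il12rb1, a chain of the interleukin-12 receptor, had 2.85, 2.56 and 2.47 TPM in LL2 and 30.4, 28.2 and 23.5 TPM in MC38 (-2.96, adjusted p = 0.002). Il15, which sustains NK and CD8 T cells, was lower (-1.49), as was its carrier Il15ra (-1.13). Ifnb1 and Il12a stayed below the filter, with Ifnb1 at 0.0879 TPM at most in LL2 and 0.707 TPM at most in MC38. In this list 1 of 10 tested genes was higher and 3 were lower, with a median of -0.35. Of all genes tested, 10.7% were higher and 15.7% lower, so the higher count lay near its share.

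Chemokines of myeloid cells went in both directions, 5 of 19 genes being higher and 6 lower with a median of -0.07. This count, and that of growth factors below, stand beside 10.7% higher and 15.7% lower of all genes tested. Ccl2, the main attractant of monocytes, had 464, 376 and 355 TPM in LL2, against 937, 975 and 584 TPM in MC38 (-1.03, adjusted p = 0.053). Ccl7, a related attractant, was not called (-0.52). Ccl4 (-2.13) and Ccl3 (-1.67), chemokines made by many activated leukocytes, and the neutrophil attractants Cxcl3 (-1.28) and Cxcl1 (-1.23) were lower. Ccl6 had 375, 339 and 356 TPM in LL2 and 74.5, 38.5 and 122 TPM in MC38 (2.32, adjusted p = 0.033), and Ccl9 moved alike (2.29). Both are chemokines that macrophages make in mice. Cx3cr1, the fractalkine receptor of monocytes and macrophages, had 36.4, 42.6 and 36.3 TPM in LL2, against 3.95, 3.15 and 4.86 TPM in MC38 (2.99 ± 0.25, adjusted p = 0.0028), while its ligand Cx3cl1 was lower (-1.11). Csf1, the ligand of CSF1R, was not called (0.71), nor was Il34, its other ligand (0.11). Csf2ra, a chain of the GM-CSF receptor, was the 1 of 5 tested growth factor genes called, at 91.3, 89.0 and 81.9 TPM in LL2 and 28.9, 19.02 and 30.1 TPM in MC38 (1.74).

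Other leukocyte lists were small or divided. Their counts stand beside 10.7% higher and 15.7% lower of all genes tested. Among 12 tested neutrophil genes, 2 were higher and 3 lower, with a median of -0.82. The calprotectin subunits S100a8 (-0.79) and S100a9 (-0.92) overlapped between the lines, with 99.9, 41.9 and 35.6 TPM of S100a8 in LL2 and 87.9, 94.9 and 94.4 TPM in MC38. Trem1 (1.29) and Clec4d (1.04), receptors that macrophages share, were higher, and Hdc (-1.53), Stfa2l1 (-1.35) and Il1r2 (-1.26) lower, a count of lower genes that became 6 without LL2 replicate 1 and 1 without LL2 replicate 3. With gene-wise variance only Trem1 was called and none of the lower genes was, while relative to leukocyte genes 8 genes were lower and none higher. Of 12 tested dendritic cell genes, 2 were higher and 3 lower with a median of 0.16 that turned to -0.43 relative to leukocyte genes. Flt3, their growth factor receptor, was not called (0.85), and Zbtb46, a transcription factor of conventional dendritic cells, was lower (-1.32). Clec9a, the receptor of cross-presenting dendritic cells for dead cells, was higher (1.92), and Ccr7, the homing receptor of mature ones, lower (-1.71). The mast cell, basophil and eosinophil list had 4 of 7 tested genes higher with a median of 1.03. Gata2, a transcription factor that is not confined to these cells, was 14.3 TPM or more in LL2 and 1.77 TPM or less in MC38 (2.69). The mast cell proteases Cpa3, Tpsb2 and Cma1 lay between 1.03 and 1.17, below 6 TPM throughout and uncalled in the fit over all 30 libraries, and Mcpt8 was not called (-0.52). The count of 4 higher genes became 1 without LL2 replicate 2 and 2 without MC38 replicate 2.

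The largest rises in LL2 were in matrix, keratin and other genes that do not define leukocytes, although the libraries are labelled as CD45+ cells. The 8 largest rises among called genes with no overlap and at least 10 TPM were Dkk2, Mmp3, Nptx1, Krt18, Nid1, Krt8, Crabp1 and Lum. Dkk2, a secreted modulator of Wnt signalling (chromosome 3, 132085292 to 132180304, mm10), had 360, 302 and 268 TPM in LL2, against 0.168, 0.213 and 0.119 TPM in MC38 (8.05 ± 0.25, adjusted p = 0.00069). Mmp3, the matrix protease stromelysin-1 (chromosome 9, 7445822 to 7455975), had 786, 530 and 557 TPM in LL2, and 1.11, 1.09 and 3.80 TPM in MC38 (7.80, adjusted p = 0.0029). Lum, a collagen-binding proteoglycan (chromosome 10, 97565128 to 97572703), had 582, 420 and 485 TPM in LL2 and 8.05, 9.50 and 4.83 TPM in MC38 (5.91, adjusted p = 0.0025). Every MC38 library was below 10 TPM for these genes, and every LL2 library was far above it. Nptx1, a neuronal pentraxin, had 147, 72.1 and 106 TPM in LL2 and was listed at 0 in all 3 MC38 libraries. Nid1, a linker of basement membranes, rose by 6.50, and Crabp1, which binds retinoic acid, by 6.37.

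Of 18 fibroblast and matrix genes, 8 were higher and 2 lower, with a median of 0.44, beside 10.7% higher and 15.7% lower of all genes. Col3a1, the chain of type III collagen, had 2667, 2316 and 1968 TPM in LL2, against 115, 186 and 114 TPM in MC38 (4.08 ± 0.28, adjusted p = 0.0036). Dcn, the proteoglycan decorin (2.90), Bgn, biglycan (2.90), Fn1, fibronectin (2.27), Acta2, smooth muscle actin (1.76), Fap (1.66) and Pdgfra (1.10) were also higher. Col1a1, a chain of type I collagen, overlapped at 39.8, 97.5 and 35.8 TPM in LL2 and 29.5, 36.1 and 42.1 TPM in MC38 (0.53, not called). LL2 replicate 2 was highest for Col1a1, Col1a2 and Postn. Thy1 (-2.003), which T cells carry too, and Pdgfrb (-1.97), a receptor of pericytes, were lower. The list median turned to -0.16 relative to leukocyte genes. The summed level of the 18 genes was 6179 to 7916 TPM in LL2 and 1315 to 2295 TPM in MC38, and the part of such cells in the other results was not tested.

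Of the listed keratins of simple epithelia, Krt8 and Krt18 were higher in LL2, while Krt7 and Krt19 stayed below the filter. Krt8 and Krt18 passed the filter only through LL2, so neither could have been called lower. Krt8 had 154, 76.9 and 96.0 TPM in LL2, against 0.113, 0.478 and 0.134 TPM in MC38 (6.42 ± 0.25, adjusted p = 0.0026), and its partner Krt18 rose by 6.62. Epcam, a surface protein of many carcinomas, was at most 0.216 TPM in LL2 and 0.607 TPM in MC38, and 7 of 11 epithelial genes stayed below the filter. Of the 4 tested, Ocln (1.49), a tight junction protein, was the third called, and Cdh1, E-cadherin, was not (0.51). Lung and colon markers were nearly absent. Nkx2-1, Sftpa1 and Sftpd, which define lung epithelium, were listed at 0 in all 6 libraries, and Sftpc reached 0.0619 TPM in LL2 and 0.153 TPM in MC38. The lung gene Napsa, the only 1 of that list above the filter, was not called (-0.31). Cdx2, a regulator of colon epithelium, was at most 0.222 TPM in LL2 and at 0 in MC38. Vil1 (-1.43) and Cdh17 (-1.66), of the intestinal brush border and cell contacts, were lower in LL2 but no higher than 2.84 TPM in MC38. Among 9 tested endothelial genes, Tie1, Esam and Vwf were higher (1.21 to 1.28) and Pecam1 and Cdh5, the main junction proteins, were not called (0.07 and 0.20). The higher share of all genes tested was 10.7%. None of 4 tested genes of host skin, fat and muscle was called.

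**Figure D4:**
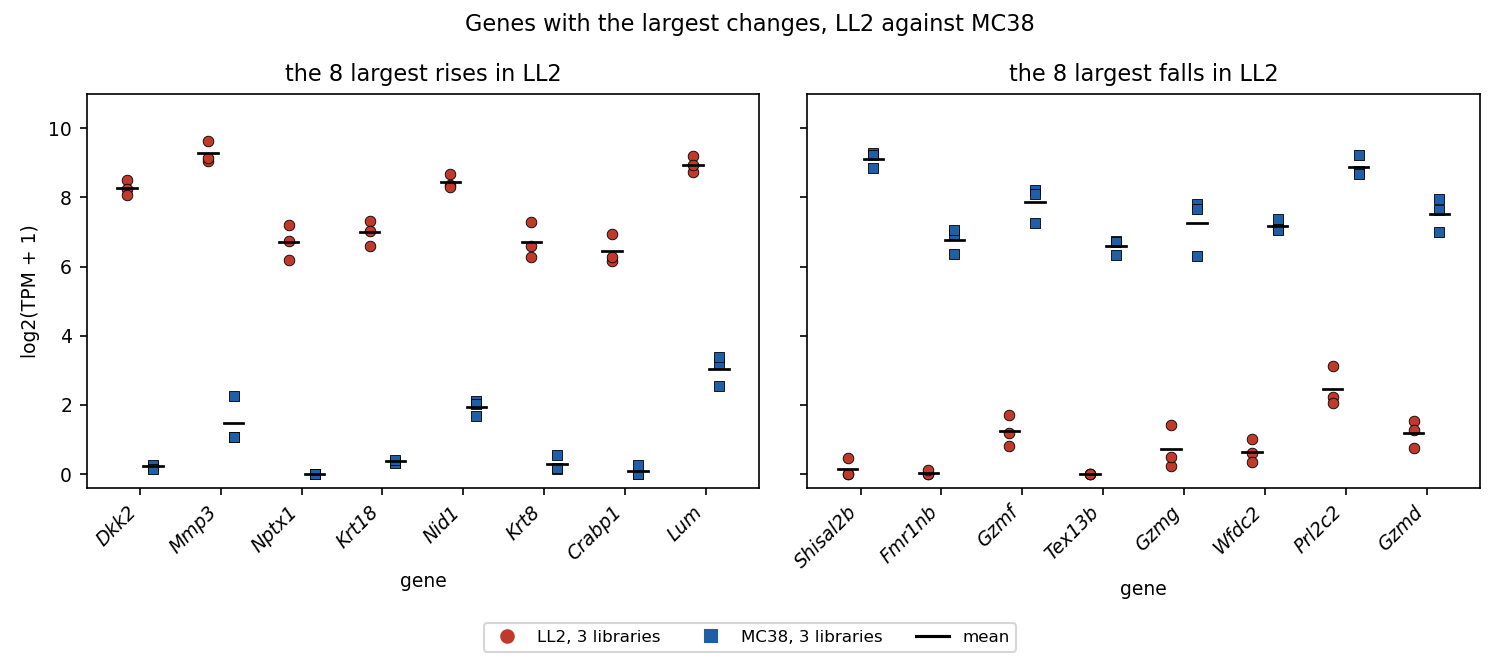
Points are single libraries, LL2 in red and MC38 in blue, with log2(TPM + 1) on the y axis and genes on the x axis, and bars are means of 3. The left panel holds the 8 largest rises, from Dkk2 (8.05) to Lum (5.91). The right panel holds the 8 largest falls, from Shisal2b (-8.96) to Gzmd (-6.34). Genes were chosen among those without overlap, so every LL2 point lies above every MC38 point on the left and below on the right.

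The 8 largest falls were Shisal2b, Fmr1nb, Gzmf, Tex13b, Gzmg, Wfdc2, Prl2c2 and Gzmd, 3 of them granzymes. Shisal2b (chromosome 13, 104845283 to 104863893) had 0, 0 and 0.394 TPM in LL2, against 624, 596 and 461 TPM in MC38 (-8.96 ± 0.25, adjusted p = 0.00084). Fmr1nb, a cancer-testis antigen on chromosome X, had 0, 0 and 0.0786 TPM in LL2 and 121, 131 and 80.6 TPM in MC38 (-6.74, adjusted p = 0.0016). Tex13b, a testis-expressed gene also on chromosome X, was listed at 0 in all LL2 libraries, against 106, 105 and 79.4 TPM in MC38. These falls, like the rises, were chosen among called genes without overlap, so their full separation follows from that rule. Shisal2b, Fmr1nb and Tex13b passed the filter only through MC38, so none of them could have been called higher. Wfdc2, a secreted protease inhibitor of epithelia, fell by 6.52. Prl2c2, a placental member of the prolactin family, had 7.72, 3.68 and 3.17 TPM in LL2 and 592, 435 and 410 TPM in MC38 (-6.42), but its transcript is 97.8% identical to that of Prl2c3, which fell by 5.32. Of 11 tested oncofetal and germline-type genes, 5 were higher and 5 lower, beside 10.7% higher and 15.7% lower of all genes tested. H19, an imprinted fetal RNA, led the rises with 471, 299 and 357 TPM in LL2, against 11.2, 19.7 and 6.60 TPM in MC38 (4.90), followed by Hmga2, a fetal chromatin protein (3.03), and Igf2 (2.57). Rhox5, a placental and testis homeobox gene, was lower (-1.31).

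Cell cycle genes were lower in LL2, 12 of 15 with a median of -1.22. Mki67, the proliferation marker Ki-67, had 31.3, 31.8 and 31.0 TPM in LL2, against 55.5, 59.97 and 41.3 TPM in MC38, a fold change of -0.70 that was not called. Top2a, a topoisomerase of dividing cells, was lower at 128, 98.9 and 95.3 TPM in LL2 and 275, 257 and 165 TPM in MC38 (-1.09). Rrm2, which supplies nucleotides for DNA synthesis, had 60.7, 58.4 and 49.5 TPM in LL2 and 405, 391.8 and 261 TPM in MC38 (-2.61, adjusted p = 0.0059), and Mcm5, a subunit of the replicative helicase, stood at -1.98. MC38 replicate 3 was the lowest MC38 library for these 4 genes, still above each LL2 library. Against MC38OVA, 4 of the 15 genes were lower, with a median of -0.95.

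Of 12 growth control and p53 target genes, 5 were higher in LL2 and 2 lower, beside 10.7% and 15.7% of all genes tested. The 2 lower genes were the neighbours Cdkn2a and Cdkn2b. Cdkn2a, which encodes p16INK4a and p19ARF, had 0.142, 0.136 and 0.135 TPM in LL2, against 9.49, 11.02 and 7.83 TPM in MC38 (-3.19 ± 0.23, adjusted p = 0.0021). Its neighbour Cdkn2b, another inhibitor of CDK4 and CDK6, had 0.544, 0.270 and 0.464 TPM in LL2 and 10.9, 11.4 and 6.40 TPM in MC38 (-2.86). Mtap, on the other side, was lower but present, at 78.8, 59.9 and 60.4 TPM in LL2 against 205, 199 and 138 TPM in MC38 (-1.42). Klhl9, farther out, was not called (0.22). Between Klhl9 and Mtap, Wincr1 (-1.76) and Gm13284 (-1.68) were lower and Gm12602 was not called (0.82). Between Mtap and Cdkn2a, Gm12606 averaged 0.209 TPM in LL2 and 19.6 TPM in MC38 (-4.10). Far beyond Cdkn2b, which ends at base 89311039 of chromosome 4, lies Elavl2, which starts at base 91250763. Elavl2 was listed at 0 in every LL2 library and averaged 6.42 TPM in MC38 (-2.86). Cdkn2a, Cdkn2b, Gm13284, Gm12606 and Elavl2 passed the filter only through MC38, so none of them could have been called higher. Trp53 was close in both lines at 145, 122 and 122 TPM in LL2 and 140, 147 and 97.4 TPM in MC38 (0.04). Zmat3 (2.82, adjusted p = 0.0034), Cdkn1a (1.43), Ccng1 (1.42) and Mdm2 (1.15), all targets of p53, were higher, while the targets Bax (-0.01) and Eda2r (0.97) were not called.

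Hypoxia and glycolysis genes had 2 of 14 higher and 5 lower, with a median of -0.78, beside 10.7% higher and 15.7% lower of all genes. Car9, a carbonic anhydrase induced by low oxygen, had 3.68, 1.62 and 2.03 TPM in LL2, against 32.8, 53.2 and 38.2 TPM in MC38 (-3.64, adjusted p = 0.0063). Adm, a vasodilator peptide, had 93.8, 19.4 and 19.8 TPM in LL2 and 1.43, 1.51 and 1.93 TPM in MC38 (3.71, adjusted p = 0.031). Slc2a1, the glucose transporter GLUT1, overlapped at 262, 84.7 and 100 TPM in LL2 and 142, 166 and 102 TPM in MC38 (-0.04). LL2 replicate 1 was the highest LL2 library for each of the 14 genes, and 8 genes were lower without it. With gene-wise variance Car9 and Pfkp were the only lower genes called, and against MC38OVA Car9 alone was, with a list median of -0.17. LL2 replicate 1 also led in the heat shock genes Hspa1a and Hspa1b, with 41.0 TPM of Hspa1a against 8.09 and 6.85 TPM in the other LL2 libraries and 6.13 to 8.995 TPM in MC38. Of 12 dissociation and stress genes, 1 was called, Ier3 (-1.06), with overlap, and Fos (0.89) and Fosb (0.92) were not. All 5 red cell genes were lower (Hba-a1 and Hba-a2 at -3.02), with Hbb-bs at 636, 514 and 225 TPM in LL2 and 2156, 2471 and 12537 TPM in MC38, and none was called with gene-wise variance.

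Called genes were not spread evenly over chromosomes. On chromosome X, 153 of 498 tested genes were lower in LL2 (30.7%) and 42 were higher (8.43%), with a median of -0.49, against 15.7% lower and 10.7% higher of all genes. Chromosomes 8, 5 and 4 came next with 23.1%, 20.8% and 20.5% lower. Chromosomes 12, 18 and 10 had the largest shares higher, at 16.97%, 15.7% and 15.1%, with 9.50%, 10.4% and 9.82% lower. Chromosomes 9, 13, 14 and 15 also had more genes higher than lower. Xist, the RNA that silences one X chromosome in female cells, had 63.1, 65.4 and 72.2 TPM in LL2, against 9.05, 7.33 and 10.7 TPM in MC38 (2.77). Copy number and the sex of hosts were not measured, and their part in this was not tested.

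**Figure D5:**
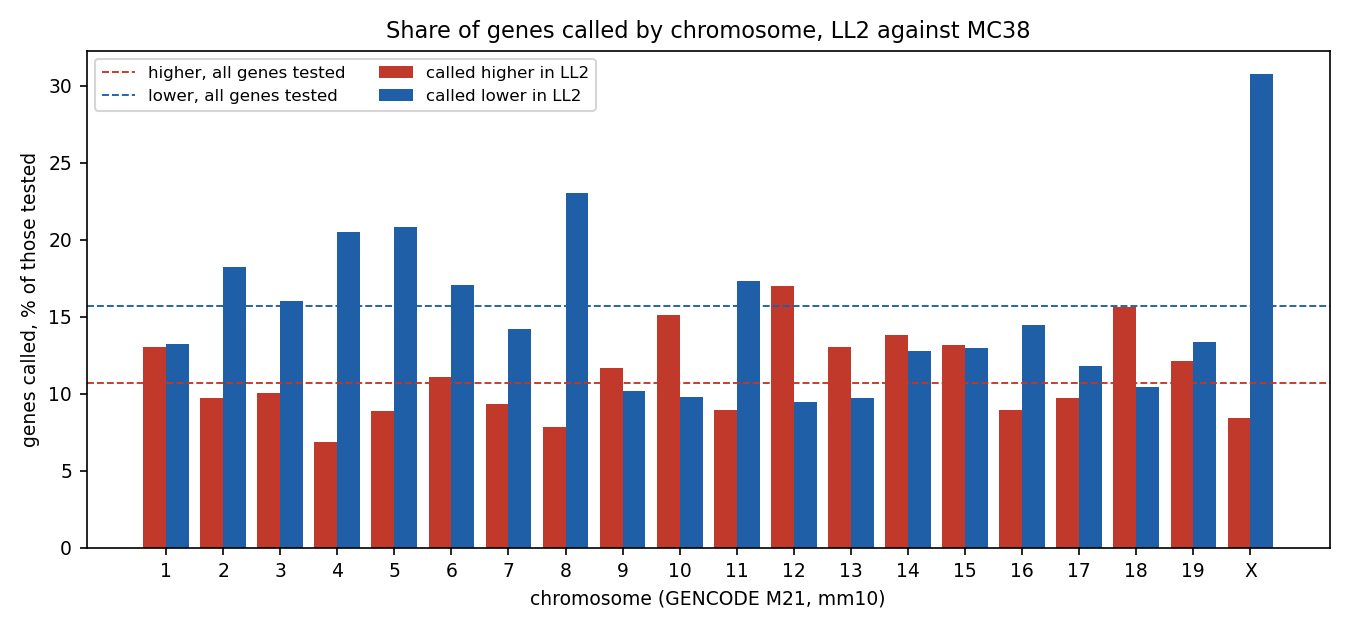
Bars give the percentage of tested genes called higher (red) or lower (blue) in LL2 against MC38 on each chromosome, and dashed lines the shares of all genes, 10.7% and 15.7%. Chromosome X stands at 30.7% lower, above every autosome, of which chromosome 8 is highest at 23.1%.

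The levels of both lines were set beside the other 8. Mean Csf1r was highest in LL2 of the 10 lines (154 ± 17.9 TPM, SD, n = 3), and MC38 ranked 8 at 35.4 ± 13.6 TPM. LL2 also ranked first for Adgre1, Lyz2, Mrc1, Cbr2, Cd163, F13a1, Arg1 and Lum. Of the tested general macrophage genes, LL2 ranked first for 5 of 12, ranked 2 or 3 for 6 and ranked 8 for Aif1. Of the tested scavenger and complement genes it ranked first for 10 of 14 and 2 or 3 for 3, and it ranked 6 for Selenop, at 77.1 TPM against 1310 TPM in Renca. MC38 ranked first for Prf1, Gzmc, Gzmf and Ido1 and second, behind MC38OVA, for Gzmb, Cd8a, Isg15, Cxcl10 and H2-K1, while LL2 ranked 4 to 8 for these 9 genes. Neighbours in these orders can be close, as with Csf1r in LL2 and in EMT6, the line in second place at 136 TPM.

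MC38OVA, the subline of MC38 that carries ovalbumin, has its own 3 libraries, and LL2 was set against them as well. The LL2 libraries are shared by both comparisons. Killing and interferon genes were lower in LL2 than in MC38OVA as well. Prf1 averaged 3.63 ± 1.17 TPM in LL2, against 85.1 ± 9.004 TPM in MC38OVA and 89.0 ± 11.4 TPM in MC38 (SD, n = 3 each). All 17 cytotoxicity genes, all 21 antiviral genes and all 19 interferon-gamma-induced genes were lower in LL2 than in MC38OVA. General leukocyte genes stood the other way, with a median of -0.51 against MC38OVA and none of 10 called, and general macrophage genes were mostly not called. Csf1r averaged 154 ± 17.9 TPM in LL2, against 109 ± 47.5 TPM in MC38OVA and 35.4 ± 13.6 TPM in MC38. Its fold change against MC38OVA of 0.61 ± 0.30 was not called (limma trend fit, adjusted p = 0.1). Of 12 general macrophage genes, 1 was higher in LL2 than in MC38OVA and 2 were lower, with a median of -0.09. Of the 14 scavenger and complement genes, 8 remained higher, with a median of 1.54, led by Cbr2 at 3.79 ± 0.36 (limma trend fit, adjusted p = 2.3e-06). The adjusted p-values against MC38OVA come from the trend fit. They cannot be set against those of single genes against MC38, which come from the fit with gene-wise variance.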

How the data were processed

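RNA-seq of 3 LL2 and 3 MC38 libraries was read from the authors' deposited table of TPM values, a length-corrected share of all transcripts, for 55291 symbols. Per the submitters' processing notes, Trim Galore 0.6.5, STAR 2.7.3a, StringTie 2.1.2 and the mm10 build were used, while roles, settings and annotation are not given in the sources used here. TPM keeps no depth, so no count test or counting interval was possible. Genes of at least 1 TPM in 3 of the 6 libraries were tested as log2(TPM + 1) in limma 3.58.1 (R 4.3.3) with an intensity trend and Benjamini-Hochberg adjustment, where a fold change on this scale understates that of low genes. The estimate of the spread put all weight on the trend (residual df 4, prior df infinite). Adjusted p-values printed for single genes are therefore from a limma fit with gene-wise variance, unless another fit is named. The gene-wise fit was added after seeing the data. SEs printed with fold changes are from the trend fit. On simulated data with 200 of 14684 genes changed by 1.5 on the log2 scale, 82.5% were recovered with 5 false calls. All changed genes had a mean level above 2 on that scale, and the noise was independent between genes and libraries. Far fewer genes changed than were called in the data, so these values are not error rates of the real comparison. The members and the 34 gene lists were chosen with earlier results of these data known. Named were the 8 largest rises and 8 largest falls without overlap, the first 2 genes and the 2 largest called members of each list, and any member of the macrophage, lymphocyte and interferon lists. Further members of other lists, Xist and the genes around Cdkn2a were named after their values were seen. Some list members are not reported here. Promoters are RefSeq's for GRCm38.p6, and coordinates of 14432 genes are GENCODE M21's. Replicate numbers are not stated to pair the samples, and the fit has no block.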

Additional observations from a re-analysis of the deposited data

How the results depend on the processing

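Counts of higher and lower genes stayed within 1.5 times those given under median-ratio scaling, a pseudocount of 0.1, other filters and gene-wise variance. They did so too without mitochondrial and haemoglobin transcripts, and with MC38OVA in place of MC38 (1255 higher, 2063 lower). The fit over all 30 libraries (1566 higher, 2277 lower) and the fit without trend (1576 and 2300) keep each fold change. Since calls follow the fold, the counts of these fits were nearly fixed in advance and are no check. Scaling to leukocyte genes gave 668 higher and 5008 lower, and dropping the fold threshold gave 3078 and 4380. Leaving out 1 library at a time gave 1424 to 1710 higher and 2045 to 2875 lower. With MC38OVA, 6 list medians turned negative, those of general leukocytes (-0.513), macrophages (-0.0857), dendritic cells (-0.416), mast cells, basophils and eosinophils (-0.482), MHC class II (-1.13, with 6 genes lower) and endothelium (-0.347), no red cell gene was called, and Selenop (-0.0827), Ccr2 (-0.0493), Cd209a (-0.32), Cpa3 (-0.47), Tpsb2 (-0.48), Cma1 (-0.72), H2-Ab1 (-0.98) and H2-Eb1 (-1.12) changed sign; the cause was not tested. Of 246 called genes of the lists and leading genes, 238 kept their call in the fit over all 30 libraries, 214 relative to leukocyte genes and 190 with gene-wise variance. Median-ratio scaling turned 4 small list medians positive, those of monocytes (0.0272), myeloid chemokines (0.0572), stress genes (0.107) and oncofetal genes (0.0322). Relative to leukocyte genes, 0 endothelial, 1 growth control and 4 suppressive mediator genes were higher. With gene-wise variance, 3 myeloid chemokine genes were lower. Same-numbered libraries deviated together at r = 0.0957, -0.323 and -0.016, and differently numbered ones at r = -0.31 to 0.318. These values cannot show whether a number marks a shared day or batch, which the labels do not state. A replicate block keeps every fold change of this balanced design, so its counts of 1576 higher and 2300 lower were fixed by the fold and are no check. Depth is unknown, 3 libraries a line limit the precision, and host strain, treatment and separate mice are not recorded for any library.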

Other observations

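Gene families were also counted by symbol, for 327 families of 6 or more tested members, and those given were chosen after their values were seen. All 9 tested Gbp genes and all 6 Oas genes were lower in LL2, with medians of -1.51 and -2.05. Of 9 tested Apol genes, relatives of apolipoprotein L, 7 were lower, with a median of -3.17. Apol9a had 5.36, 11.5 and 4.51 TPM in LL2, against 145, 158 and 106 TPM in MC38 (-4.16), and Apol9b, a close paralog whose reads may be shared, stood at -3.82. Of 7 Igf genes, 6 were higher, with a median of 1.56. Igf2r, which clears IGF2, had 118, 87.7 and 93.75 TPM in LL2, against 26.7, 33.4 and 17.1 TPM in MC38 (1.95), and only Igf2bp3 was not called (-0.09).

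Further large differences lay outside the lists and were also picked after seeing values. Stc1, the hormone stanniocalcin, had 104, 61.9 and 72.2 TPM in LL2, against 0.410, 0.835 and 0.440 TPM in MC38 (5.66). Vcan, the matrix proteoglycan versican, had 197, 158 and 155 TPM in LL2, against 5.68, 3.32 and 6.23 TPM in MC38 (4.84). Afp, the fetal plasma protein alpha-fetoprotein, had 0.264, 0.115 and 0.1595 TPM in LL2, against 28.3, 26.1 and 19.6 TPM in MC38 (-4.43). None of these 3 genes overlapped between the lines.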
